A study of Mus musculus with 4 samples.

Results

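The regions described here are 2713 sites of Pcbp1 enrichment that were called in naive mouse embryonic stem cells and had no counterpart called in primed epiblast-like cells (EpiLC). They were chosen by the measured peak calls of both lists and by position: they are the peaks of the Naive list on chromosomes 1 to 19 and X that overlapped no EpiLC peak by even 1 bp. Their summit, the base of highest enrichment, lay outside every protein-coding gene body and more than 1 kb but at most 50 kb from the nearest protein-coding gene end. They are called Naive-only near-gene peaks below, and they made up 22.5% (21.8% to 23.3%, exact 95% binomial interval) of the 12046 Naive peaks on these chromosomes. The Naive and EpiLC lists together held 15626 peaks. Of the 12046 Naive peaks, 10426 (86.6%) overlapped no EpiLC peak. Absence from the EpiLC list chose these regions, so that absence is a description and not a result.

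The study profiled Pcbp1 by ChIP-seq, which sequences the DNA fragments that an antibody pulls down with a protein, in naive embryonic stem cells and in EpiLC derived from them, with an input library of each state. Its title names amino acid metabolism and the passage from naive to primed pluripotency. All cells were of the mouse line E14 Tg2a, with no allele named as altered. Each state had 1 ChIP library, so no difference between the states has a replicate check and none was tested.

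Naive cells had been kept for 3 passages without serum in N2B27 medium with LIF, the MEK inhibitor PD0325901 (1 uM) and the GSK3β inhibitor CHIR99021 (3 uM), on poly-L-ornithine. EpiLC were the same cells after 48 hours on fibronectin in N2B27 with bFGF (12 ng/ml), Activin A (20 ng/ml) and 1% KOSR, a serum replacement. Chromatin was fixed with formaldehyde and sheared to about 500 bp before precipitation. The peak lists hold no expression values, so the cell states could not be checked by their marker genes' expression.

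Pcbp1 is a poly-C-binding protein: its KH domains bind C-rich single-stranded RNA and DNA, and it acts in RNA processing and translation, as an iron chaperone and at some gene promoters. Intergenic sequence around genes is where many enhancers lie, which are elements bound by transcription factors that act on a gene from a distance. Naive and primed pluripotent cells use different enhancers at several genes, and in mouse naive cells LIF signalling through Stat3 and factors such as Klf4, Tfcp2l1 and Nanog keep the naive state. The nearest gene named beside a peak is a matter of position on the chromosome, not a measured target.

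No genome sequence was at hand for the summits at large, but promoter windows of noncoding genes from RefSeq (GRCm38.p6) covered some. Of the Naive-only near-gene peaks, some lay with their summit in the window from 250 bases before to 50 bases after a noncoding gene's start, and 29 such windows were found. They are shown because Pcbp1 is known for binding C-rich strands, so the C runs under the summits can be read directly. The 4 with the highest fold enrichment are given first, followed by 3 picked after their values were seen, namely Snhg20, a small nucleolar RNA host gene, 1600020E01Rik, whose peak lay 1.03 kb from the Pcbp1 gene itself, and Platr9, a lncRNA of the series named for pluripotency-associated transcripts. Each sequence is on the gene's own strand, 5′ to 3′, and holds up to 60 bases on either side of the summit, cut off where the window ended. Capitals mark runs of at least 4 C or at least 4 G, a G run being a C run on the other strand.
Gm40987 chr13:65991172-65991246 minus: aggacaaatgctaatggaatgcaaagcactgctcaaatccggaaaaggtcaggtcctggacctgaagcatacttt
Gm30296 chr12:102730437-102730554 plus: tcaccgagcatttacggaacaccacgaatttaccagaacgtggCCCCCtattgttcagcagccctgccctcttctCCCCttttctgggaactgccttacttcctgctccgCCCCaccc
9430037G07Rik chr9:88599290-88599410 minus: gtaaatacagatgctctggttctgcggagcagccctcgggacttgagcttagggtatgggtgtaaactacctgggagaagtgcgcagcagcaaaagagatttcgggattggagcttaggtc
4933404O12Rik chr5:136919022-136919142 plus: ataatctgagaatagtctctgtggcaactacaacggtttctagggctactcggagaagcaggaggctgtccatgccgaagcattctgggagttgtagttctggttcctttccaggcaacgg
Snhg20 chr11:117076591-117076711 plus: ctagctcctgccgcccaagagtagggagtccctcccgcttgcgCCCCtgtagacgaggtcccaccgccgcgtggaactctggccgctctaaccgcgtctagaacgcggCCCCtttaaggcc
1600020E01Rik chr6:86527163-86527283 plus: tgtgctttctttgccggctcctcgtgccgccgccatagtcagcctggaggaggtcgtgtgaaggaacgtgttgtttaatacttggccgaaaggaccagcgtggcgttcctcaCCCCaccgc
Platr9 chr4:34911565-34911685 minus: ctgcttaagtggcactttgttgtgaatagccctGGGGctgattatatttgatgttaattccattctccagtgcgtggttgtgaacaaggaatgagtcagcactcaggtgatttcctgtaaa

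Of these 7 sequences, Gm30296 held 3 C runs and Snhg20 held 2, whereas Gm40987, 9430037G07Rik and 4933404O12Rik held none in the stretch shown. At Gm40987 that stretch was cut off close to the summit by the end of the window. The full windows of Gm40987, 9430037G07Rik and 4933404O12Rik held 1, 2 and 1 runs of C or G. The folds were 7.67 (6.36 to 9.18) at Gm40987, 6.99 (4.93 to 9.65) at Gm30296, 5.60 (3.76 to 8.05) at 9430037G07Rik and 5.38 (3.58 to 7.79) at 4933404O12Rik. At Snhg20, 1600020E01Rik and Platr9 they were 4.20, 4.14 and 3.92. The order by fold was therefore not the order by number of C runs in these few sequences. Over the full windows, the letters CCCC were found on either strand in 28 of the 29 (96.6%), against 83.5% of the 9520 windows of all noncoding genes. CCCTCCC, which holds no CCCC, was found on either strand in 31.0% of the 29, against 16.4% of all. The median GC content of the 29 was 52%, against 48.7% of all, so GC content and C runs moved together; the part of GC content in the motif shares was not tested.

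The Naive-only near-gene peaks were of ordinary strength for the Naive list. Fold enrichment, as the authors' peak caller gave it, compares the reads piled up at the summit with the local background. Its median was 4.48 in the Naive-only near-gene peaks (quartiles 3.80 and 5.58, range 1.69 to 19.9), against 4.45 in all Naive peaks. It was 4.35 in Naive-only peaks at gene ends, 4.40 in those inside gene bodies and 4.60 in those over 50 kb from genes. The widths were alike too, with a median of 360 bp (222 to 2613 bp) in the Naive-only near-gene peaks and 362 bp in all Naive peaks. A fold of at least 5 was reached by 33.5% of the Naive-only near-gene peaks and by 33.0% of all Naive peaks.

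The Naive-only near-gene peaks did differ from Naive-only peaks at gene ends in their strongest members. A fold of at least 10 was reached by 81 of the 2713 (2.99%), against 2.41% of all Naive peaks. Among Naive-only peaks at gene ends, 7 of 3131 (0.224%) did so. Inside gene bodies it was 68 of 3105 (2.19%), and over 50 kb from genes 38 of 1477 (2.57%). The 308 Naive peaks in the same intergenic band that overlapped an EpiLC peak had a median fold of 4.81, and 24 of them (7.79%) reached 10.

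**Figure D1:**
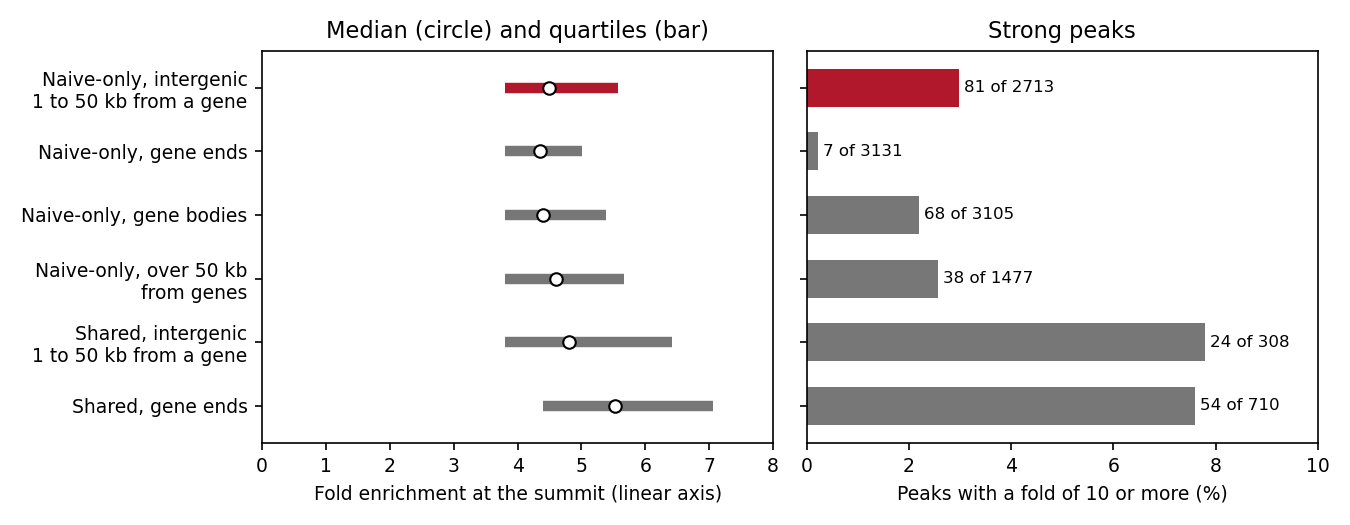
Left, median (circle) and quartiles (bar) of the fold enrichment at the summit in the authors' Naive list, for Naive-only near-gene peaks (red) and other classes of Naive peaks (grey). Right, percentage of each class with a fold of at least 10; it was 2.99% in the Naive-only near-gene peaks and 0.224% in Naive-only peaks at gene ends, and 7.79% in shared peaks of the same intergenic band.

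Strong Naive peaks in this intergenic band mostly lacked an EpiLC counterpart, whereas strong Naive peaks at gene ends mostly had one. The band was not alone in this. With a fold of at least 10, 68 Naive peaks inside gene bodies were Naive-only and 14 shared. Over 50 kb from genes, 38 were Naive-only and 4 shared. Of the 105 intergenic near-gene Naive peaks with a fold of at least 10, 81 were Naive-only and 24 shared, so 22.9% were shared (15.2% to 32.1%, exact 95% binomial interval). At gene ends, 7 were Naive-only and 54 shared, so 88.5% were shared (77.8% to 95.3%). Between folds of 7 and 10 the shared part was 16.2% (11.9% to 21.3%) in the near-gene band and 61.5% (54.4% to 68.2%) at gene ends. Below a fold of 4 the 2 positions were close, at 9.22% (7.53% to 11.1%) and 8.40% (6.93% to 10.1%). The intervals cover counting error within 1 library only.

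The EpiLC list was the shorter one, with 3432 peaks on these chromosomes, and this bears on which Naive peaks were left without a counterpart. At genome-wide background the lowest fold called was 2.85 in EpiLC, at a pileup of 23 fragments, and 3.00 in Naive, at a pileup of 14. A Naive fold of at least 2.85 was held by 2627 of the Naive-only near-gene peaks (96.8%). At genome-wide background the Naive list itself began above 2.85, and 278 of the 3432 EpiLC peaks stood at that background. The 96.8% therefore cannot tell which of these sites could have been called in EpiLC. The 81 strongest were all at least 4.04 kb from any EpiLC peak. What part of the Naive-only calls came from the unequal lists was not tested.

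**Figure D2:**
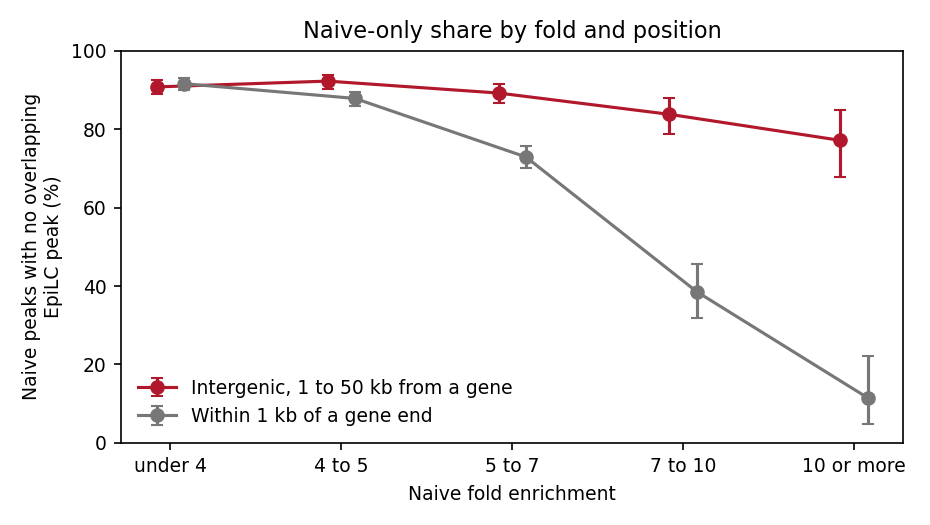
Percentage of Naive peaks with no overlapping EpiLC peak (vertical axis) in bands of Naive fold enrichment (horizontal axis), for intergenic peaks 1 to 50 kb from a gene (red) and peaks within 1 kb of a gene end (grey). Bars are exact 95% binomial intervals for counting error; at a fold of 10 or more, 81 of 105 near-gene peaks and 7 of 61 gene-end peaks were Naive-only.

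The strongest of the 2713 lay near genes of varied function, with genes of naive pluripotency, LIF signalling and Id and Fox factors among them. The highest fold was 19.9 (16.4 to 24.004, exact 95% Poisson interval of the pileup) at chr4:141565309-141565982, 10.5 kb downstream of Fblim1, which encodes a filamin-binding adaptor of cell adhesions. Zbtb44, a zinc finger gene, followed with 19.8 (16.1 to 24.1) at 10.8 kb upstream, and Jam2, a junctional adhesion molecule gene, with 19.4 (15.7 to 23.6) at 4.77 kb. These 3 intervals overlap, so their order is within counting error. Next came Zfp42, which encodes the naive marker Rex1, at 17.8 (14.3 to 21.9), Scn3a, a sodium channel gene, at 16.4 (13.1 to 20.3), and Prdm14, a transcriptional regulator of naive cells and the germ line, at 15.8 (12.6 to 19.6).

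Klf9, a Krüppel-like factor gene, was nearest to a peak of 15.8, though it lay 46.1 kb away. The kinase gene Dstyk had one of 15.2 at 4.29 kb, and Plpp4, a lipid phosphatase gene, one of 15.4 at 38.7 kb. Kat6b, a histone acetyltransferase gene, had 2 of the 24 strongest, with folds of 14.5 at 12.9 kb upstream and 14.1 at 24.5 kb upstream. Socs3, the feedback inhibitor of LIF signalling, and Id3, a target of BMP signalling, had peaks of equal fold, 14.2 (11.2 to 17.8), at 5.27 kb upstream of Socs3 and 1.56 kb downstream of Id3. Foxd3, a transcription factor gene of pluripotent and neural crest cells, had 13.95 (11.1 to 17.3) at 20.1 kb upstream.

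The other genes nearest to the 24 strongest were H4bc24, Vwa3b, Gucy1a2, Lpp, Efr3a, Hspb8, Arl14epl, Tfap4, Mgat4e and Map10, with folds of 13.6 (Map10) to 14.99 (H4bc24). Of the 24, 2 had an EpiLC peak within 10 kb. The 81 peaks with a fold of at least 10 had 80 different nearest genes. Their median width was 660 bp, and 43 of the 81 had another Naive-only near-gene peak within 10 kb, against 39.3% of all 2713. Their local background was at most 2.51 times the genome-wide one.

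Peaks were denser close to genes than far from them. The Naive-only near-gene peaks had a median distance of 12.4 kb from the nearest gene end (quartiles 5.32 and 25.3 kb), and 1175 (43.3%) lay within 10 kb. Counted against the intergenic sequence available at each distance, there were 7.07 per Mb from 1 to 2 kb, 5.18 from 2 to 5 kb, 5.16 from 5 to 10 kb, 4.35 from 10 to 20 kb and 3.87 from 20 to 50 kb. Shared peaks had 0.761, 0.582, 0.638, 0.572 and 0.377 per Mb in the same 5 bins, and EpiLC-only peaks 1.52, 0.892, 1.05, 0.754 and 0.512. All 3 kinds were densest in the nearest bin and sparsest in the farthest, but shared and EpiLC-only peaks were denser at 5 to 10 kb than at 2 to 5 kb. A fold of at least 10 was held by 0.897% of the Naive-only peaks at 1 to 2 kb, 3.35% at 2 to 5 kb, 2.81% at 5 to 10 kb, 3.21% at 10 to 20 kb and 3.28% at 20 to 50 kb. The nearest bin was thus low, and the other 4 showed no order with distance.

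**Figure D3:**
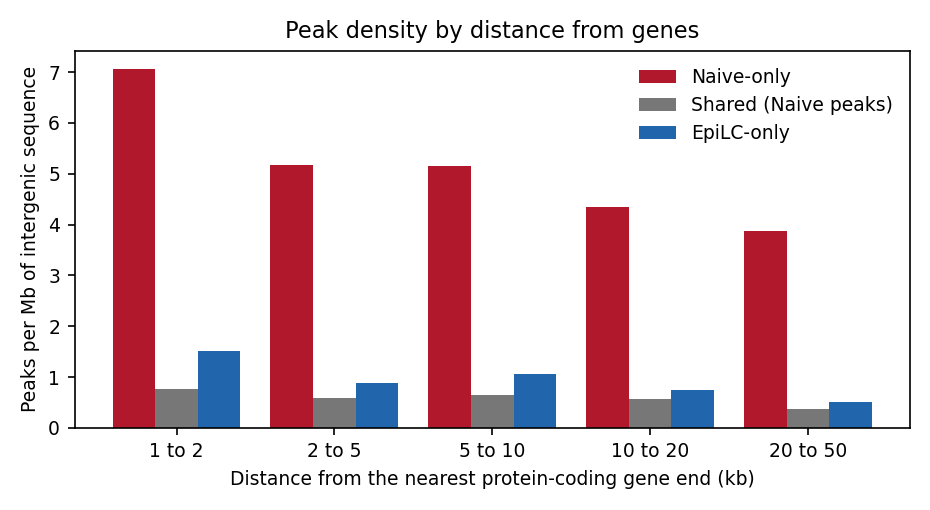
Peaks per Mb of intergenic sequence (vertical axis) by distance of the summit from the nearest protein-coding gene end (horizontal axis, kb), for Naive-only (red), shared (grey) and EpiLC-only (blue) peaks. Naive-only density was 7.07 per Mb at 1 to 2 kb and 3.87 per Mb at 20 to 50 kb.

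More of the Naive-only near-gene peaks lay upstream than downstream of their nearest gene. The strand was at hand for the nearest genes of 2082 peaks (76.7%), and 1217 of these (58.5%, 56.3% to 60.6%) were upstream, where 54.2% of the sequence was. The upstream share was 65.3% (57.8% to 72.3%) at 1 to 2 kb, where 51.3% of the sequence lay upstream, and 56.1% at 20 to 50 kb, where 54.9% did. Among shared near-gene peaks 48.6% (42.2% to 55.0%) were upstream, and among EpiLC-only ones 49.9% (44.5% to 55.2%).

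By chromosome, density ran from 3.62 per Mb on chromosome 3 to 7.31 on chromosome 11 among the autosomes. Chromosome X held 49 peaks, 1.08 per Mb, below every autosome. Of the 189 Naive peaks on X, 25.9% were Naive-only near-gene peaks, a share near that of other chromosomes (19.9% to 25.3%).

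The 2713 peaks had 1924 nearest genes, 9.93% of the 19366 protein-coding genes with any intergenic sequence in the band. Of these, 1424 were nearest to 1 peak, 316 to 2, 118 to 3, 39 to 4 and 27 to 5 or more. A Naive gene-end peak, with its summit within 1 kb of either end, was also present at 508 of the 1924 genes (26.4%, 24.4% to 28.4%), against 19.6% of all protein-coding genes and 17.0% (16.5% to 17.6%) of those with intergenic sequence in the band but no such peak. The other 1416 genes had no Naive summit within 1 kb of either end. An EpiLC gene-end peak was present at 134 of the 1924 (6.96%), against 5.67% of all protein-coding genes and 5.05% of those with band but no peak. EpiLC-only near-gene peaks had 400 nearest genes, and 73 were in both sets, which is 3.79% of the 1924 and 18.3% of the 400. The 18.3% (14.6% to 22.4%) stood above the 9.93% of all genes with band that were nearest to a Naive-only near-gene peak.

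Part of the Naive-only near-gene peaks came in runs. When peaks with summits at most 10 kb apart were joined, 1067 of the 2713 (39.3%) had a neighbour. There were 292 runs of 2, 87 of 3, 28 of 4 and 19 of 5 or more. The median fold was 4.40 in runs and 4.53 alone, while of the 81 peaks with a fold of at least 10, 43 had a neighbour.

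The longest run, 10 peaks over 20.5 kb beside Mid1 on chromosome X, was of low fold, 1.95 to 4.05, where the median background was 6.14 times the genome-wide one. Mid1 encodes a ubiquitin ligase and is known for spanning the pseudoautosomal boundary in some mouse strains. A run of 5 near Gm21119 on chromosome 8, named after its values were seen, was alike, with folds of 1.96 to 4.13 on a median background 9.91 times the genome-wide one. In the next longest runs after Mid1 the background was near the genome-wide one, 1.25 times at Srsf3 and Cdkn1a and 1.13 times at Sik1. At Srsf3, a splicing factor gene, and Cdkn1a, which encodes the cell cycle inhibitor p21, 7 peaks spanned 25.1 kb with folds of 2.99 to 8.47. At Sik1, a salt-inducible kinase gene, 7 peaks spanned 18.4 kb, all 23.1 to 41.5 kb from the gene, with folds of 3.36 to 8.14.

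At Tet1, which encodes an enzyme that oxidises methylated cytosine in DNA, 6 peaks stood within 9.08 kb, 5.58 to 14.7 kb upstream of the gene. Their folds were 4.98, 3.59, 7.39, 5.20, 4.40 and 4.20, in order of distance from the gene. The highest was thus the one at 9.62 kb, and its interval (5.24 to 10.2) did not overlap that of the weakest (2.39 to 5.19). At Ranbp17 and Gabrp, a GABA receptor subunit gene, 6 peaks spanned 17.1 kb, with the highest fold at 12.3 (9.59 to 15.4).

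Other genes with 6 Naive-only near-gene peaks were Smarcad1, a chromatin remodeller gene, Tgif1, a repressor of Smad signalling, Sall1, a zinc finger factor gene, and Pkp4, a plakophilin gene. At Smarcad1 the 6 peaks lay 17.7 to 30.6 kb upstream with folds of 3.49 to 7.39. At Tgif1 they lay on both sides of the gene, the strongest with 7.81 at 13.2 kb upstream, and Tgif1 itself had gene-end peaks of 3.99 in Naive and 4.39 in EpiLC. Sall1 was alike in this, with a strongest intergenic peak of 7.47 and gene-end peaks of 5.79 in Naive and 3.91 in EpiLC.

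Genes of naive pluripotency were nearest to many of these peaks. Of 28 listed genes, 23 were the nearest gene of at least 1 (82.1%, against 9.93% of genes with band), with 46 peaks in all. Against the sequence in the band that belonged to these genes, this made 28.9 Naive-only near-gene peaks per Mb, where all protein-coding genes had 4.56. Leaving out Prdm14, the gene with most, gave 26.6. EpiLC-only peaks of the band numbered 1 near these genes, or 0.627 per Mb, where all genes had 0.770. The list was drawn up knowing that Naive peaks had been counted at such genes, so its count is no independent evidence.

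The 46 peaks had a median fold of 4.60 (3.22 to 17.8), near the 4.48 of all 2713, and 6 of them reached 10. Their median distance was 5.74 kb, and of the 29 with a known strand 19 were upstream and 10 downstream. The nearest EpiLC peak was at a median of 135 kb. Of the 23 genes, 10 had no Naive summit within 1 kb of their own ends. Esrrb, Dppa4, Nr5a2, Gbx2 and Stat3 were the 5 listed genes with none of these peaks.

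**Figure D4:**
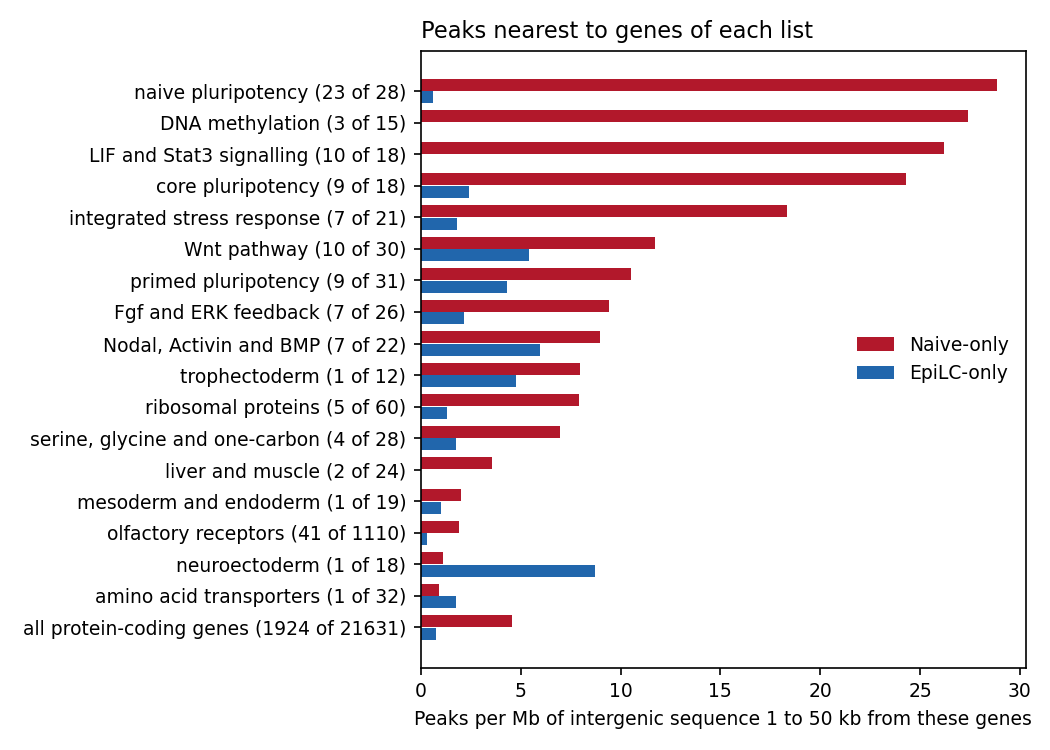
Intergenic peaks per Mb of the sequence 1 to 50 kb from the genes of each list (horizontal axis), Naive-only in red above EpiLC-only in blue. Numbers in parentheses are the genes nearest to at least 1 Naive-only near-gene peak, of those in the list; the naive pluripotency list stood at 28.9 and 0.627 per Mb and the neuroectoderm list at 1.09 and 8.70.

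Among the transcription factors of the naive network, several had a strong peak away from the gene and a weaker one at its end. Zfp42 had 3 Naive-only near-gene peaks, of which the strongest, 17.8, lay 13.8 kb upstream, and a Naive gene-end peak of 5.79. Prdm14 had 5, with folds of 15.8 at 28.3 kb and 4.40 to 4.996 at the other 4, and a gene-end peak of 3.08. A further Naive peak of 5.20 beside Prdm14, 17.3 kb from the gene, overlapped an EpiLC peak of 3.02; one of the 5 stood close by, at 18.8 kb.

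Tfcp2l1, which encodes a factor acting downstream of LIF, had 11.8 (9.11 to 14.99) at 2.29 kb upstream and 3.70 at 1.32 kb upstream, against 3.27 at its end. Klf4, a Krüppel-like factor gene also induced by LIF, had 11.7 (8.94 to 14.9) and 3.68 at 49.6 and 48.6 kb downstream, close to the 50 kb limit, and 2.79 at its end. Nanog, the homeodomain factor of the naive network, had 6.90 (5.05 to 9.21) at 4.90 kb and 4.58 at 2.11 kb upstream, and 4.84 at its end. The gene-end value of Nanog lay within counting error of the nearer intergenic peak.

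Klf2 had 3 peaks of 3.93 to 5.99 within 7.85 kb. Klf5 had 2, at 26.4 and 42.3 kb, with folds of 4.34 and 5.39, and no gene-end peak. Tbx3, a T-box factor gene, had 4 weak ones, none above 4.10. Nr0b1, which encodes the orphan receptor Dax1, had 1 of 5.79 at 4.32 kb upstream, on chromosome X.

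Genes of naive cell markers gave similar values. Dppa3, which encodes the maternal factor Stella, had 1 peak of 5.17 (3.42 to 7.54) at 1.69 kb, Dppa2 1 of 4.20 at 1.12 kb, and Dppa5a 2 of 6.34 and 4.20. Spp1, the osteopontin gene, had 6.99 and 4.05 at 2.03 and 3.07 kb downstream, with a higher peak of 8.39 at its own end. Fbxo15 was the reverse of Zfp42, with 4.60 at 2.02 kb and 10.2 at its end. Tdgf1, which encodes the Nodal co-receptor Cripto, had the widest of all 2713 peaks, 2613 bp, with a fold of 9.19 (6.76 to 12.2). Its summit lay 1.37 kb upstream, but the peak itself reached across the upstream end of the gene. No Naive peak had its summit within 1 kb of either end of Tdgf1.

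Of the LIF pathway, 10 of 18 genes (55.6%, against 8.89% of all protein-coding genes) were nearest to a Naive-only near-gene peak. These were 17 peaks, which made 26.2 per Mb, or 20.1 without Socs3. Socs3, Lifr, Il6st, Stat3 and Klf4 are in this list and in the naive one. None had an EpiLC-only peak in the band. Of the receptor genes, Lifr, the ligand-binding subunit, had 1 peak of 13.0 (10.2 to 16.4) at 8.52 kb upstream and no gene-end peak, and Il6st, the gp130 subunit, had 7.39 (5.24 to 10.2) at 1.53 kb upstream and 4.80 at its end. Lif, the ligand gene, had 1 weak peak of 3.62 at 30.1 kb. Stat3, the transcription factor of the pathway, had none in the band and 7.39 at its end, and only 7.57 kb of sequence in the band belonged to it.

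Socs3 had 5 peaks and no gene-end peak. Upstream they had folds of 8.16 at 2.45 kb, 14.2 at 5.27 kb and 5.21 at 6.22 kb, and downstream 3.22 at 31.8 kb and 6.12 at 35.3 kb. No EpiLC peak was called within 50 kb of the gene. Pim1, a kinase gene induced by Stat3, had 3 peaks of 3.42 to 4.19 between 17.3 and 22.1 kb upstream.

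**Figure D5:**
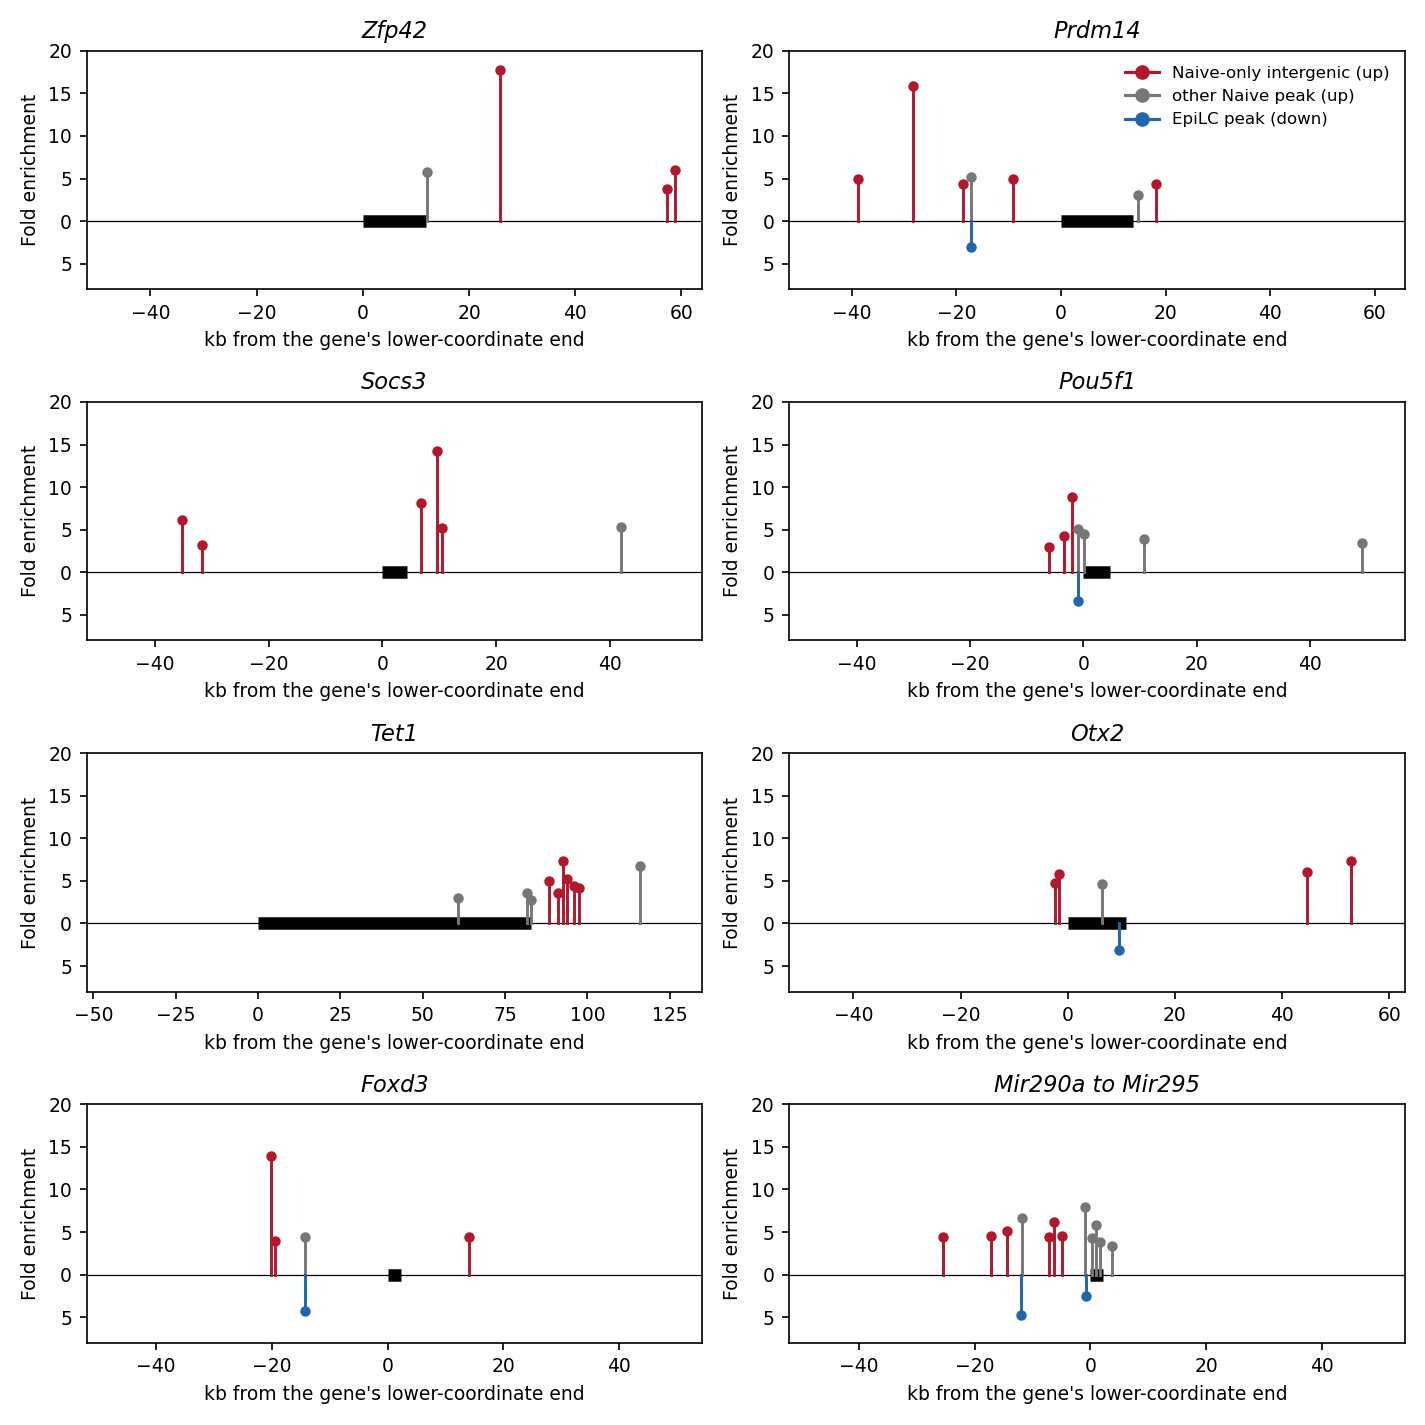
Peaks within 50 kb of 8 loci, plotted by kb from the lower-coordinate end of the gene or hairpin cluster (black bar). Lines up are Naive folds, red for Naive-only near-gene peaks and grey for other Naive peaks; blue lines down are EpiLC folds. Zfp42 and Socs3 show no EpiLC peak, while at Prdm14, Pou5f1, Foxd3 and the Mir290a to Mir295 cluster an EpiLC peak overlaps a grey Naive peak beside the red ones.

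Core pluripotency genes, used in both states, had these peaks, at some genes next to shared ones. Shared Naive peaks lay within 50 kb of Pou5f1, Sox2 and Foxd3, but not of Jarid2, Myc, Mycn or Zfp281. Of 18 genes, 9 (50%, against 8.89% of all protein-coding genes) were nearest to a Naive-only near-gene peak. These were 20 peaks or 24.3 per Mb, or 21.0 without Pou5f1. EpiLC-only peaks made 2.43 per Mb, against 0.770 for all genes. Pou5f1, which encodes Oct4, had 8.82 (6.78 to 11.3) at 1.94 kb upstream, 4.24 at 3.41 kb and 2.91 at 6.14 kb. The nearest EpiLC peak was 477, 1982 and 4836 bp from these 3. The peak of 8.82 would thus be a shared one if an EpiLC peak within 1 kb were counted. Nearer to the gene, within 1 kb of its end, a Naive peak of 5.12 overlapped an EpiLC peak of 3.42. Mouse Pou5f1 is known for a distal enhancer used in naive cells and a proximal one used in primed cells, both upstream of the gene; the files do not mark either.

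Sox2 had 3 of these peaks, the strongest with 5.92 (4.06 to 8.37) at 1.63 kb downstream, and gene-end peaks of 4.32 in Naive and 3.95 in EpiLC. Jarid2, which encodes a Polycomb partner, had 9.80 (7.48 to 12.6) at 8.37 kb and 9.39 (6.93 to 12.5) at 25.1 kb upstream, with a weaker one of 3.597 between them and none at its end. Foxd3 had 3, the strongest 5370 bp from an EpiLC peak.

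Primed pluripotency genes had a lower density than the naive and core lists, but a higher one than all protein-coding genes. Of 31 listed genes, 9 (29.0%, against 9.93% of genes with band) were nearest to a Naive-only near-gene peak. These were 17 peaks or 10.5 per Mb, against 4.56 for all genes, Foxd3 and Zfp281 being in the core list too. EpiLC-only peaks were nearest to 4 of the 31, with 7 peaks or 4.33 per Mb, against 0.770 for all genes. None of the 9 had a Naive gene-end peak. Otx2, a homeodomain factor gene of EpiLC, had 4, with folds of 4.78 and 5.81 at 2.39 and 1.63 kb downstream and 5.99 and 7.31 at 33.7 and 42.0 kb upstream. The EpiLC peak at Otx2, of 3.13, lay inside the gene. Nodal, the signalling ligand gene, had 1 strong peak of 9.65 (7.33 to 12.5) at 1.95 kb upstream and no EpiLC gene-end peak. Fgf5, the usual EpiLC marker, had no Naive-only near-gene peak but 2 EpiLC-only ones, and Lef1 had 0 and 3. Pou3f1, Dnmt3a, Dnmt3b, Etv4 and Etv5 had none of the Naive-only near-gene peaks.

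The Wnt, Nodal and Fgf lists lay near the primed list and above the 4.56 per Mb of all genes. Their EpiLC-only densities, given below, were above that of all genes too, which was 0.770 per Mb. The shares of genes nearest to a Naive-only near-gene peak were 33.3% (Wnt), 31.8% (Nodal) and 26.9% (Fgf). Of all protein-coding genes, 8.89% were. Some of the peaks of these lists are counted in other lists too. Fgf4, Tdgf1 and Sp5 are also in the naive list, and Nodal, Spry2 and Dusp6 in the primed list. Without the gene with most peaks, the densities were 9.70 (Wnt), 6.32 (Nodal) and 7.35 (Fgf) per Mb. The Wnt pathway had 10 of 30 genes and 11.7 Naive-only near-gene peaks per Mb, with 5.42 EpiLC-only peaks per Mb. Axin2, a feedback gene of the pathway, had 3 of the peaks (highest 5.20), and Notum, a secreted Wnt inhibitor gene, 1 of 8.96 (6.71 to 11.7) at 2.72 kb. The Nodal, Activin and BMP list had 7 of 22 genes and 8.96 per Mb, with 5.97 EpiLC-only. In it Smad7, an inhibitor of the pathway, had 3 peaks with a highest fold of 10.2. The Fgf and ERK list had 7 of 26 and 9.40, with 2.17 EpiLC-only. Fgf4, the ligand gene, had 3 peaks, none above 3.55.

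Amino acid metabolism, named in the study's title, was covered by a list of enzymes and a list of transporters, which differed in density. Of 28 serine, glycine and one-carbon genes, 4 were nearest to a Naive-only near-gene peak, 1 each or 6.97 per Mb, against 4.56 for all protein-coding genes. The share of genes, 14.3%, stood against 8.89% of all protein-coding genes, on a count of 4. Tdh, the threonine dehydrogenase gene, had 3.59 (at 3.70 kb), Cth, of cysteine synthesis, 3.49, Mtr, the methionine synthase gene, 4.22, and Ahcy, of the methionine cycle, 5.04. Among 32 amino acid transporter genes, Slc38a2 was the one with such a peak (4.93 at 10.5 kb), and the list stood at 0.887 per Mb, below the 4.56 of all genes.

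The integrated stress response, a programme switched on when amino acids run short, stood higher, with 18.3 Naive-only near-gene peaks per Mb. Without Eif2s2, the gene with most, it was 13.5. The peaks were nearest to 7 of 21 genes (33.3%, against 8.89% of all protein-coding genes). Each of the 7 had a Naive gene-end peak too, as did 11 of the 21 in all. Asns, the asparagine synthetase gene, had 8.59 at 1.24 kb, above the 3.39 at its own end. Eif2s2, which encodes a subunit of the initiation factor eIF2, had 3, with a highest fold of 10.6 (7.96 to 13.8) at 6.51 kb upstream, and Trib3 and Ddit4, target genes of Atf4, had 4.48 each. Of 60 ribosomal protein genes, 50 had a Naive gene-end peak, and 5 (8.33%) were nearest to a Naive-only near-gene peak, a share near the 8.89% of all protein-coding genes. Their 6 peaks had a median fold of 3.31 and made 7.90 per Mb.

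DNA methylation genes had 27.4 per Mb, but without Tet1 the value was 7.37. The 3 genes of 15 (20%, against 8.89% of all protein-coding genes) were Tet1, Tet2 (4.60 at 25.3 kb) and Uhrf2 (9.68 at 1.25 kb). No EpiLC-only peak lay in their band.

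Lists of other lineages held 1 or 2 genes each with these peaks, and their densities lay on both sides of the 4.56 per Mb of all genes. In the neuroectoderm list, 1 of 18 genes, Neurog1, was nearest to one (4.77), so the list had 1.09 per Mb, while 8 genes were nearest to EpiLC-only peaks, 8.70 per Mb. The mesoderm and endoderm list had 1 of 19, Gsc, with 2 peaks or 2.03 per Mb. The trophectoderm list had 1 of 12, Tfap2c, whose gene also acts in pluripotent and germ cells, with 5 peaks up to 11.5 (8.79 to 14.8), which made 7.97 per Mb. Liver and muscle genes had 2 of 24, or 3.58 per Mb. Of 1110 olfactory receptor genes, which are silent in most tissues, 41 were nearest to a Naive-only near-gene peak, 1.93 per Mb, and 1 had a Naive gene-end peak.

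A share of the regions lay at noncoding genes, which the rule did not use. Of the 2713, 648 (23.9%) had their summit in a noncoding gene or within 1 kb of one, 567 genes in all. The share was 33.8% for shared near-gene peaks and 23.1% for EpiLC-only ones. LncRNA genes accounted for 552, with 459 summits inside the gene and 219 within 1 kb of an end. The strongest were the Dstyk peak of 15.2 in the lncRNA gene 6030442K20Rik and one of the Kat6b peaks, 14.1, in Gm30363. Then followed Gm30871 (13.6), Gm52564 (12.6), Gm41537 (11.6), Gm36038 (11.5, the strongest Tfap2c peak), Gm30847 (11.2) and 4930447K03Rik (10.8). Platr10, of the same series of transcripts as Platr9 and named after its value was seen, held a peak of 9.99 (7.44 to 13.1).

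Few of the peaks were at miRNA genes, 8 at 7 genes. One peak of 4.80 (3.11 to 7.10), at chr11:75172918-75173405, had its summit 369 bp from the Mir212 hairpin and 663 bp from that of Mir132. The other genes were Mir7671, with 2 peaks (5.80 and 4.30), Mir713 (4.30), Mir5135 (4.23), Mir6516 (4.20 and 3.71) and Mir1949 (3.62). Mir132 and Mir212 are neighbours and their mature 3p miRNAs share a seed, bases 2 to 8, by which a miRNA pairs with its targets, shown in capitals (RefSeq, GRCm38.p6).
miR-132-3p: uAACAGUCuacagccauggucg
miR-212-3p: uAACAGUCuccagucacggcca

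The run of 6 Naive-only near-gene peaks between AU018091 and Nlrp12 on chromosome 7 lay upstream of the Mir290a to Mir295 cluster, whose miRNAs are among the most abundant of mouse embryonic stem cells and act on the cell cycle. The cluster was singled out after its values were seen. The 3p miRNAs shown share the seed AAGUGCU, apart from miR-290a-3p (capitals, RefSeq, GRCm38.p6). Of those not shown, miR-291b-3p has the seed AAGUGCA and miR-293-3p the seed GUGCCGC.
miR-290a-3p: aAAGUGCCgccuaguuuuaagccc
miR-291a-3p: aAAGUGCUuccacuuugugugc
miR-294-3p: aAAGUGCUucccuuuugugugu
miR-295-3p: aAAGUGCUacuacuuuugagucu

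The 6 peaks stood 25.4, 17.2, 14.3, 7.10, 6.37 and 4.87 kb upstream of the first hairpin of the miR-290 cluster, with folds of 4.40, 4.55, 5.15, 4.40, 6.19 and 4.53. Their intervals overlapped, from 2.80 to 8.76, so no peak stood out of the run. Naive peaks that overlapped an EpiLC peak lay among them at 11.9 kb, with a Naive fold of 6.69 (4.89 to 8.96), and nearer to the hairpins at 0.908 kb, with 7.97 (5.73 to 10.8). Past the first hairpin, where the rule no longer held, lay a shared Naive peak of 4.29 and 3 Naive-only peaks of 5.79, 3.79 and 3.42. Naive-only and shared peaks were thus interspersed along the locus.

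The peaks nearest to the limits of the rule had folds in the usual range. Just beyond 1 kb were peaks at Cep112 (1001 bp, fold 6.59), Lysmd3 (1002 bp, 3.08) and Hoxb9 (1016 bp, 3.77), and just within it, and so left out, peaks at Jag1 (996 bp, 3.80), Tbx3 (996 bp, 4.80) and Ssbp4 (993 bp, 4.63). Just within 50 kb were peaks near Hdac2 (4.71), 4930432M17Rik (3.80) and Edil3 (3.597), and just beyond it peaks near Gm52612 (3.16), Fcgr1 (3.89) and Bdh1 (4.41). EpiLC peaks lay within 1 kb of 55 of the 2713 (2.03%), and within 10 kb of 255 (9.40%). The closest, without overlap, were 24, 58 and 97 bp from the peaks near Tecrl, Usp46 and Epb41l3. The smallest overlaps that made a peak of the band a shared one were 27, 37 and 38 bp, near B4galnt2, Nrf1 and Ms4a14. After Tdgf1, the widest were near Gm3435 (1745 bp, on a background 3.01 times the genome-wide one), Wdr5 (1565 bp), Ube2q1 (1547 bp), Rbx1 (1514 bp) and Slc52a3 (1496 bp).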

How the data were processed

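Per the submitters' processing notes, fastp, Bowtie2, Picard and MACS2 were used with the build GRCm38 (mm10), with versions and the caller's control not given in the sources used here. Both peak lists deposited by the authors, Naive and EpiLC, came from 1 ChIP library each, with no counts or read depth. Each deposited row gives a peak's start and end, a score, a fold enrichment (a ratio to the local background), the −log10 p-value, the −log10 q-value and the offset of the summit. The score was not used in the results. All columns of per-sample values belonged to these libraries (0 left out).

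From these, a script found overlaps of at least 1 bp and the distance from each summit to the nearest protein-coding gene of RefSeq (GRCm38.p6, 21631 genes). Fragments piled up at a summit were recovered as the whole number whose Poisson p-value and fold (1 added to pileup and background) matched the deposited pair within 0.001, for all Naive peaks and 99.97% of EpiLC peaks. Exact 95% Poisson intervals of the fold and exact (Clopper-Pearson) binomial intervals of shares cover counting error only, and fragments are not known to be independent molecules. Total depth is unknown. The genome-wide background was 4.00 fragments in Naive and 7.43 in EpiLC. The strand came from RefSeq promoter entries with 1 strand per gene.

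Members and gene lists were chosen with earlier results of these data known. All genes of the 17 lists were matched (0 unmatched). Named by rule were the 24 strongest members, of each list up to 6 genes with most members, the 10 genes with most members, the longest runs, the 6 widest members, members at the limits of the rule, and all miRNA and the 8 strongest other noncoding genes at members. Further genes of the pluripotency, LIF, Wnt and DNA methylation lists were named after their values were seen. No p-value was computed, since peaks of 1 library are not replicates. The scripts were tested on simulated data and used scipy 1.17.1, pandas 2.3.3, matplotlib 3.10.9 and numpy 2.4.6 under Python 3.11.15. Alternatives for the threshold, overlap, distance limit, position and annotation were tried.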

Additional observations from a re-analysis of the deposited data

How the results depend on the processing

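Of 93 values under alternatives, 71 stayed within their interval or within 1.5 times the count and 22 did not. With −log10 q of at least 5, the median fold was 4.94, the median width 387 bp, the share with a neighbour 31.3% and the share whose nearest gene had a Naive gene-end peak 21.2%. With a fold of at least 5, 910 peaks were left, with a median fold of 6.19, a width of 470 bp, 15.6% with a neighbour, 10.7% with a Naive gene-end peak and 19.3% at noncoding genes. With a limit of 20 kb, 1799 peaks (14.9% of Naive peaks) were left, at a median of 7.22 kb, 65.3% within 10 kb, 35.9% with a neighbour, 30.7% with a Naive gene-end peak and 21.9% at noncoding genes. With all annotated genes, the median distance was 9.15 kb, 52.9% lay within 10 kb and 34.3% had a neighbour. The nearest gene, which could then be a noncoding one, had a Naive gene-end peak for 12.8% of the peaks. It had an EpiLC gene-end peak for 3.05% of the peaks. The number, distances and share within 10 kb move with the limit, and the folds with a fold minimum, by construction. The minima on q and fold were set on the whole Naive list. Fewer neighbours and fewer Naive gene-end peaks were therefore left to count. How much of the fall in those 2 shares came from this was not tested. The cause of the other shifts, the noncoding share among them, was not tested either. The annotation of all genes leaves no peak at a noncoding gene, so it gives no noncoding share. Other overlap rules and the midpoint as position moved none of the 13 values, nor did a local background under 2 times the genome-wide one, chosen after seeing the data, move the 3 values it was run on. No paired analysis was possible because each state had 1 ChIP library, and no library could be left out. Counts near the fold limits of the caller set what depth allows: weak EpiLC signal under a pileup of 23 fragments was not listed.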

Other observations

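Local background above 2 times the genome-wide value was found at 115 of the 2713 Naive-only near-gene peaks (4.24%), against 17.2% of the shared near-gene peaks and 21.2% of the EpiLC-only ones. Naive-only peaks outnumbered EpiLC-only ones by 5.92 to 1 in the near-gene band, against 8.70 to 1 at gene ends, 5.15 to 1 inside gene bodies and 3.98 to 1 over 50 kb from genes.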
